A study of Sus scrofa with 6 samples.

Results

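Sphingosine-1-phosphate (S1P) is a signalling lipid made inside cells when sphingosine kinases phosphorylate sphingosine. S1P phosphatases return it to sphingosine, S1P lyase destroys it irreversibly, and transporters release it to act on G protein-coupled receptors of neighbouring cells. In vessels this signalling is known for keeping the endothelial barrier tight and for guiding lymphocytes out of tissues. The set described here holds 9 genes of this route: the phosphatases SGPP1 and SGPP2, the kinases SPHK1 and SPHK2, the lyase SGPL1, the transporter SPNS2, and the receptors S1PR1, S1PR2 and S1PR3. They were found by symbol through their Ensembl pig gene identifiers, and all 9 were present among the 14262 genes measured. SGPP2 was selected on its difference between the groups in these same data, so its group difference is described and not tested. The other 8 were taken by function, for their place beside it in the pathway.

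The tissue was endometrium, the lining of the uterus, from Erhualian sows, a Chinese breed of pig (Sus scrofa), at gestation day 12. The 3 sows labelled high prolific (high 1, high 2 and high 3) had parities, or litters borne, of 5, 8 and 8. The 3 labelled low prolific (low 1, low 2 and low 3) had parities of 7, 7 and 5. No other treatment or genotype is given in the labels, and the title of the series links litter size to calcium ion concentration. Each library came from bulk tissue of 1 sow, in which fewer cells of a type and less RNA per cell cannot be told apart.

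All values are normalized read counts as deposited, whose columns summed to between 22663087 and 24270245. The sequencing depth behind them is unknown. Markers of the labelled tissue were present: 8 of 8 stromal fibroblast genes were measured, none below 4190 in any sow, and 11 of 12 epithelial genes, with CLDN7 the lowest at 16.7. On the first principal component, which held 43.6% of the variance, low 2 (43.5) and low 3 (44.2) stood apart from the other 4 sows (between -40.9 and -1.52). For genes named by rule, the log2 fold change without both is therefore given where it turned or moved by over 1.5 times. Such values set the high prolific sows against low 1 alone, with no replicate in the low group. Levels are not compared between genes, since transcript lengths were not used.

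SGPP2 had the widest range of the 9 genes. It encodes one of a pair of S1P phosphatases of the endoplasmic reticulum (identifier ENSSSCG00000025993). Its normalized read count was 355 in high 1, 750 in high 2 and 986 in high 3, against 68.6 in low 1, 31.1 in low 2 and 119 in low 3. Each high prolific sow thus lay above each low prolific sow, and low 3 was the nearest of the low group. The group means were 697 ± 319 and 72.9 ± 44.1 (SD, n = 3 each). The log2 fold change, high minus low prolific on the log2(value + 1) scale, was 3.31 ± 0.57 (moderated SE). These are the values for which the gene was chosen. By size, this difference ranked 4 among differences toward high prolific sows and 22 in either direction, of 14262 genes.

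The spread of SGPP2 was not confined to the gap between the groups. The highest and the lowest of the 6 sows differed 31.7-fold, and the SD of its log2 values over all sows (1.97) ranked 68 of 14262. Within groups the SD was 0.86 log2 units, where the median gene had 0.231. SGPP2 was lowest among high prolific sows in high 1, which had a parity of 5, and highest among low prolific sows in low 3, which had the same parity. Between these 2 sows of equal parity the log2 difference was 1.57, which has no replicate. High 2 and high 3, with the largest values, had a parity of 8, a parity that no low prolific sow had, and with parity as a covariate the log2 fold change was 3.26. Without low 2 and low 3 together it was 3.20.

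The sister phosphatase SGPP1 was ordered differently over the sows. It stood at 3332, 3082 and 2747 in high 1 to high 3 and at 3840, 2003 and 1853 in low 1 to low 3. Low 1 had the most of all sows and the other low prolific sows the least, so the groups overlapped. The log2 fold change was 0.33 ± 0.28 (SE; 95% interval -0.36 to 1.01; limma adjusted p = 0.761), and it turned to -0.34 without low 2 and low 3. Of the normalized reads of both phosphatases, SGPP2 made up 9.62%, 19.6% and 26.4% in high 1 to high 3. In low 1 to low 3 its share was 1.76%, 1.53% and 6.03%. These shares are of reads and depend on transcript length, so only their differences between sows can be read. The summed reads of the pair were 3687, 3832 and 3732 in the high prolific sows, and 3909, 2034 and 1972 in the low prolific sows.

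**Figure D1:**
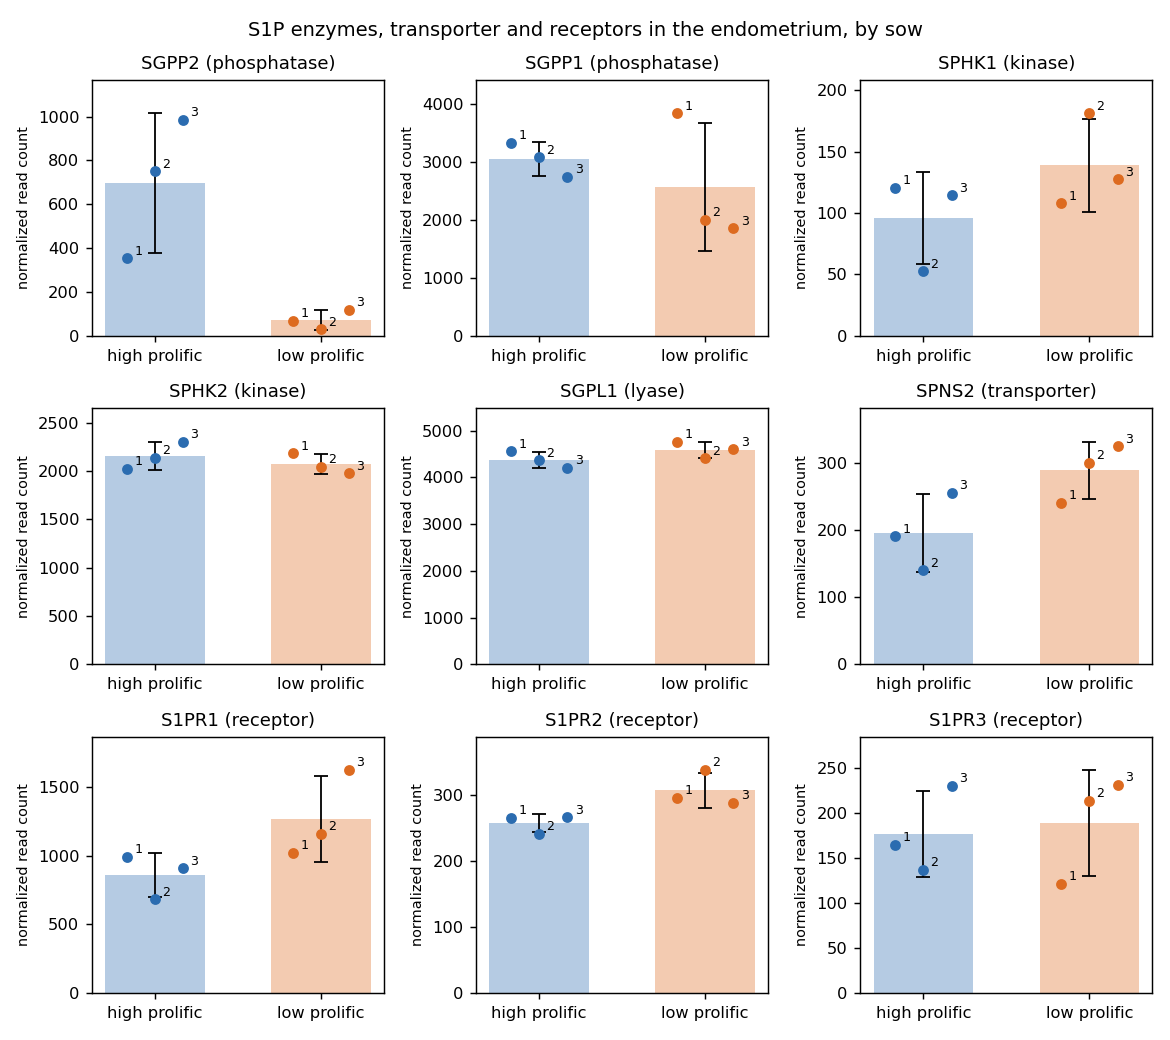
Normalized read counts (linear axes from 0) of the 9 S1P genes for each sow (points, numbered as in the labels; high prolific in blue, low prolific in orange). Each bar is the group mean and its whisker the SD over 3 sows. SGPP2 lies at 355 to 986 in the high and 31.1 to 119 in the low group, while SPHK2 and SGPL1 are nearly level over the 6 sows.

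The kinases, which make S1P, gave one flat and one variable gene. SPHK2, a kinase found in the nucleus and at internal membranes, was at 2022, 2138 and 2305 in high 1 to high 3 and at 2186, 2047 and 1979 in low 1 to low 3. The largest of these was 1.16 times the smallest. Its log2 fold change was 0.06 ± 0.10 (SE), with a 95% interval of -0.18 to 0.29 (limma adjusted p = 0.891), and it was -0.02 without low 2 and low 3. SPHK1, the kinase that growth factors activate at the plasma membrane, had low values of 121, 52.6 and 114 in the high prolific and 108, 181 and 127 in the low prolific sows. High 2 was the lowest and low 2 the highest, with the other 4 sows between 108 and 127. Its log2 fold change of -0.59 ± 0.38 (SE; 95% interval -1.51 to 0.34; limma adjusted p = 0.700) was -0.21 without high 2 and -0.26 without low 2 and low 3.

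SGPL1, the lyase that ends the pathway by cleaving S1P, varied least. Its values were 4556, 4359 and 4198 in high 1 to high 3 and 4754, 4402 and 4602 in low 1 to low 3. All 6 lay within 1.13-fold of each other and the groups overlapped. By SD over the sows SGPL1 ranked 13917 of 14262 genes and SPHK2 13480, so both were among the steadier genes of the table. The log2 fold change of SGPL1 was -0.07 ± 0.09 (SE; 95% interval -0.29 to 0.16; limma adjusted p = 0.853), and -0.12 without low 2 and low 3.

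SPNS2, which exports S1P from endothelial cells, lay lower in 2 of 3 high prolific sows than in any low prolific sow. It was at 190, 140 and 255 in high 1 to high 3 and at 241, 300 and 324 in low 1 to low 3, so that high 3 lay above low 1. This gave a log2 fold change of -0.59 ± 0.25 (SE), which did not pass (limma adjusted p = 0.633; 95% interval -1.20 to 0.02). It was -0.38 without high 2 and -0.34 without low 2 and low 3.

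Among the receptors, S1PR1 and S1PR2 lay lower in every high than in every low prolific sow. S1PR1, the Gi-coupled receptor that tightens the endothelial barrier and lets lymphocytes leave tissues, was at 994, 684 and 909 in high 1 to high 3. It was at 1022, 1163 and 1626 in low 1 to low 3. The gap between the groups was narrow, from 994 in high 1 to 1022 in low 1, and low 3 stood highest. The means were 862 ± 161 and 1271 ± 316 (SD, n = 3 each). On the log2 scale the fold change was -0.55 ± 0.22 (SE), which is 1.46-fold lower in high prolific sows. S1PR1 did not pass over all genes (limma adjusted p = 0.629), and the log2 fold change was -0.36 without low 3 and -0.26 without low 2 and low 3.

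S1PR2, a receptor that couples mainly to G12/13, was at 265, 241 and 266 in high 1 to high 3. In low 1 to low 3 it was at 295, 337 and 288. The groups did not overlap, but the difference was small, 257 ± 14.2 against 307 ± 26.8 (SD, n = 3 each; log2 fold change -0.25 ± 0.14, SE; limma adjusted p = 0.660). S1PR3, which couples to several G proteins and is prominent in smooth muscle, showed no common order. It was at 164, 137 and 230 in the high prolific and at 121, 213 and 231 in the low prolific sows. Its log2 fold change of -0.07 ± 0.32 (SE; 95% interval -0.84 to 0.70; limma adjusted p = 0.961) changed sign when high 2, low 2 or low 3 was left out, and was 0.51 without low 2 and low 3.

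**Figure D2:**
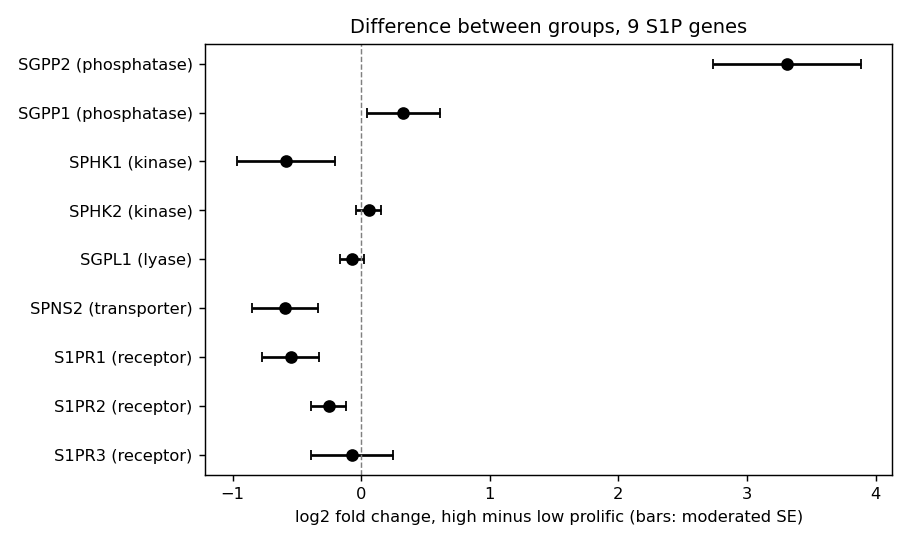
Log2 fold change on the log2(value + 1) scale, high minus low prolific, of the 9 S1P genes. Points are the estimates from 3 against 3 sows, bars the moderated SE and the dashed line no difference. SGPP2 lies at 3.31, and the other 8 genes lie between -0.59 and 0.33.

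Between the groups, limma called 0 of the 9 genes at an adjusted p under 0.05, as it did 0% of all 14262 genes. Unadjusted, 2 of the 9 had a p under 0.05, SGPP2 higher and S1PR1 lower in high prolific sows, and SGPP2 had been chosen for that difference. Of all genes 7.92% did so, 3.83% higher and 4.09% lower in high prolific sows. The groups did not overlap in 3 of the 9, SGPP2 with the high prolific sows above and S1PR1 and S1PR2 with the low prolific sows above. Over all genes this held for 13.5%, with 7.18% having high prolific sows above and 6.32% low prolific sows above. Without SGPP2, 1 of 8 genes had an unadjusted p under 0.05 (12.5%) and 2 of 8 did not overlap (25%). The median log2 fold change of these 8 was -0.16, with 6 below 0, beside a median of -0.0024 over all genes, 49.6% of which lay above 0.

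S1PR1 and SPNS2 are genes of endothelial cells, so the other endothelial genes were set beside them. Of 12 blood endothelial markers 9 were measured, and all 9 lay lower in high prolific sows on average, with a median log2 fold change of -0.40. None was near 0, the lowest value being 541 for the transcription factor ERG. Their summed normalized read count was between 11874 and 17315 in the high and between 14762 and 26607 in the low prolific sows. The groups did not overlap in 2 of the 9 (22.2%, beside 13.5% of all genes), PECAM1 and ROBO4, and TEK and EMCN had log2 fold changes of -0.09 and -0.07. PECAM1, a junction protein of endothelium, had the largest difference of the 9 (log2 fold change -0.90). It was at 3201, 2356 and 2663 in high 1 to high 3 and at 4211, 4834 and 6353 in low 1 to low 3. The markers were highest in low 3, where S1PR1 was highest too.

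Relative to each gene's own mean, the endothelial markers averaged 0.07, -0.25 and -0.43 log2 units in high 1 to high 3 and -0.19, 0.16 and 0.65 in low 1 to low 3. S1PR1 stood at -0.05, -0.59 and -0.18 in the high prolific and at -0.01, 0.18 and 0.66 in the low prolific sows. Set against the marker mean within each sow, the S1PR1 difference between groups was -0.14 log2 units in place of -0.55, and the groups overlapped. For SPNS2 it was -0.18 in place of -0.59, and for S1PR2 it changed from -0.25 to 0.16. Other marker lists gave smaller and larger values than the endothelial one. The S1PR1 difference was -0.07 against smooth muscle and pericyte markers and -0.11 against the 2 genes measured for trophectoderm. It was -0.29 against lymphatic and -0.31 against stromal markers, and SPNS2 was at -0.11 against smooth muscle and pericyte markers. Against epithelial and leukocyte markers S1PR1 stayed at -0.54 and -0.71. Against neutrophil and red cell markers S1PR1 turned to 2.03 and 0.71, and SPNS2 to 1.99 and 0.66. For SGPP2 the difference against the endothelial markers was 3.72. Against 11 epithelial markers it was 3.33, against 8 stromal markers 3.56 and against 10 leukocyte markers 3.15. These values describe a gene chosen for its group gap. The part of cell composition in the receptor and transporter differences was not tested beyond these values.

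**Figure D3:**
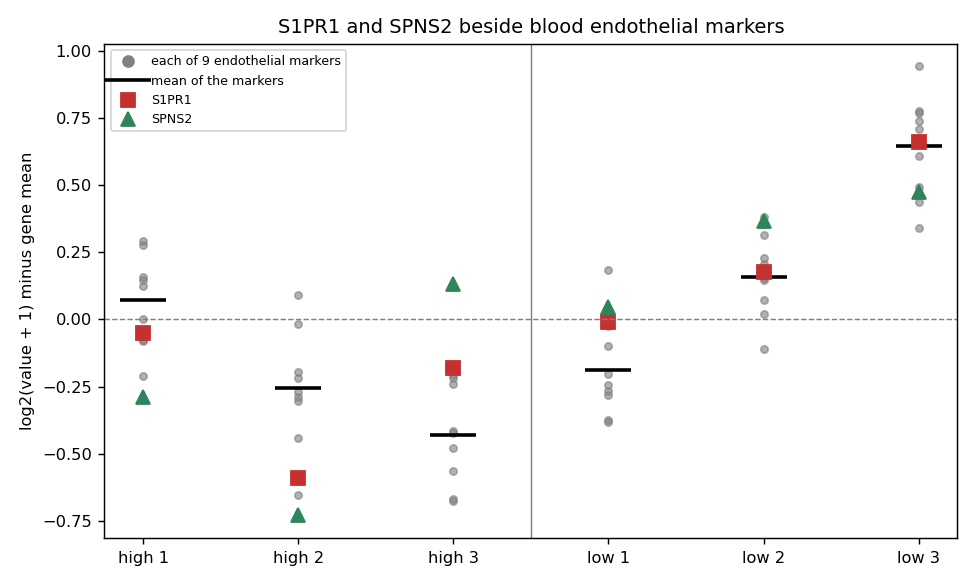
Levels of S1PR1 (squares), SPNS2 (triangles) and 9 blood endothelial markers (grey points, with their mean as a black bar) in each sow, in log2(value + 1) relative to that gene's average of the 6 sows. S1PR1 lies within 0.02 log2 units of the marker mean in low 2 and low 3 and departs from it by up to 0.34 in high 2.

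Smooth muscle and pericyte markers, 7 of 8 measured, were lower on average in high prolific sows in 6, with a median log2 fold change of -0.53. Their sums ran from 26958 to 34415 in the high and from 33241 to 34869 in the low prolific sows. MYH11, the gene that was higher on average in high prolific sows, entered these sums with 7666 to 21899. In ACTA2, CNN1 and DES, 3 of the 7 (42.9%, beside 13.5% of all genes), each high prolific sow lay below each low prolific sow. Of the lymphatic markers, all 4 measured, 1 did not overlap (25%, beside 13.5% of all genes). It was LYVE1, lower in each high than in each low prolific sow (log2 fold change -0.69). The lymphatic sums overlapped, at 407 to 816 in the high and 684 to 1163 in the low prolific sows. Epithelial sums overlapped as well, at 77809 to 80640 in the high and 66306 to 90759 in the low prolific sows. Of 11 epithelial genes, 5 were higher and 6 lower on average in high prolific sows. CDH1, CLDN3 and CLDN4, 3 of the 11 (27.3%, beside 13.5% of all genes), were lower without overlap. Stromal markers were lower on average in high prolific sows in 7 of 8, with overlapping sums of 507947 to 692883 and 601230 to 813388. LUM and PDGFRB, 2 of the 8 (25%, beside 13.5% of all genes), were lower without overlap. Neutrophil markers, 4 of 6 measured, summed to between 276 and 9139 in the high and between 11666 and 23295 in the low prolific sows. Taken singly, all 4 overlapped between the groups. On average 3 were lower in high prolific sows and CSF3R was higher (log2 fold change 0.66). Red cell markers, 2 of 5 measured, summed to 624 to 2523 in the high and 1691 to 7972 in the low prolific sows. Of 7 genes listed as trophectoderm markers 2 were measured, GATA3 and ELF5. Their sums were 77.1 to 90.5 in the high and 107 to 148 in the low prolific sows, which did not overlap. CYP19A1, CYP17A1, CDX2, IFNG and HAND1 were not matched, so whether conceptus tissue was present cannot be read from GATA3 and ELF5. Both were lower on average in high prolific sows (median log2 fold change -0.44), and GATA3 alone overlapped between the groups.

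SGPP2 was compared with the 8 genes whose levels were most like its own over the 6 sows. Likeness was the root mean square difference of log2 values centred on each gene's mean, over 11336 genes with a symbol and a mean of at least 50, whose median was 1.81. ST6GALNAC1, which adds sialic acid to mucin-type glycans, was nearest at 0.87 log2 units. It was at 1874, 5026 and 5195 in high 1 to high 3 and at 783, 846 and 2007 in low 1 to low 3, so low 3 lay above high 1. Next came ADAM23, a membrane protein of the disintegrin family (1.03), GARNL3 (1.03), and COCH, cochlin, a secreted matrix protein (1.04). KCNMB4, an accessory subunit of a calcium-activated potassium channel (1.10), STC2, a stanniocalcin (1.11), PLEKHB1 (1.13) and LAMA3, a laminin chain of epithelial basement membranes (1.14), completed the 8.

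With all sows the log2 fold changes of the 8 lay between 1.32 and 2.55, below that of SGPP2. Without low 2 and low 3 they were smaller in GARNL3 (0.73 from 2.55), COCH (0.89 from 2.05) and KCNMB4 (0.39 from 1.47), and larger in PLEKHB1 (2.64 from 1.67) and LAMA3 (2.20 from 1.32). Since SGPP2 was chosen for its group difference, genes like it share that difference by construction. In ADAM23, GARNL3, COCH and PLEKHB1 the groups did not overlap, and in the other 4 they did. COCH was at 119, 154 and 165 in high 1 to high 3 and at 77.3, 23.3 and 21.9 in low 1 to low 3. GARNL3 was at 637, 1166 and 1487 in the high prolific sows and at 625, 80.7 and 107 in the low prolific sows, with low 1 next to high 1. Between the 2 sows of parity 5, ST6GALNAC1, STC2 and LAMA3 went the other way, at -0.10, -0.40 and -0.29 log2 units, where SGPP2 was at 1.57.

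**Figure D4:**
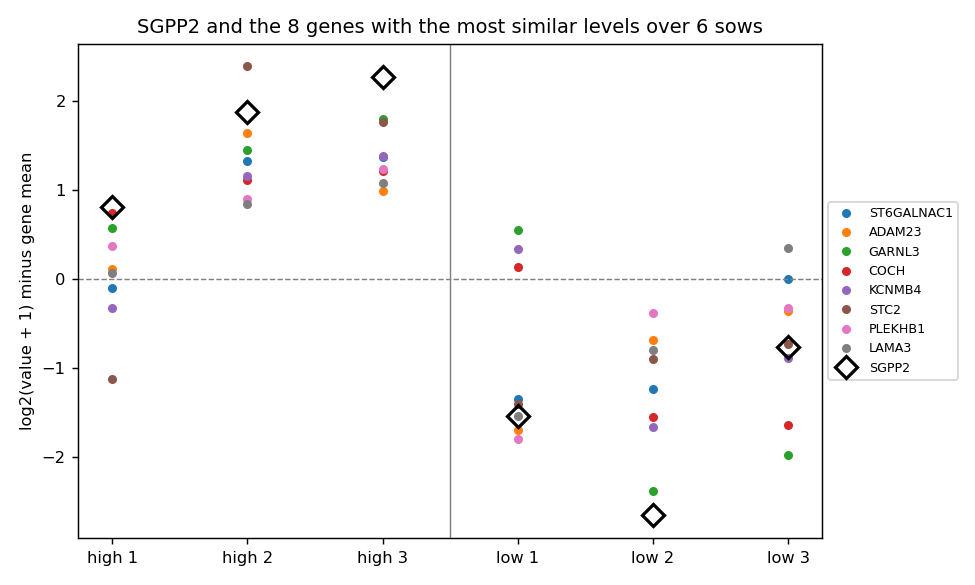
Levels of SGPP2 (open diamonds) and the 8 genes nearest to it (coloured points) in each sow, in log2(value + 1) relative to that gene's average of the 6 sows. SGPP2 runs from -2.66 in low 2 to 2.28 in high 3, beyond the other genes in both of these sows.

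The nearest named genes to SGPP2 on its chromosome, in the order of the RefSeq assembly Sscrofa11.1, did not share its pattern. Only protein-coding genes matched by symbol to a measured gene were used, so genes without a match were passed over. Of those used, EPHA4, SLC4A3 and STK11IP precede SGPP2 and ACSL3, KCNE4 and AP1S3 follow, in order of distance. Their log2 fold changes were -0.41, -0.06 and -0.01 before it and -0.14, -0.46 and 0.38 after it. EPHA4, an ephrin receptor, was at 219, 193 and 191 in high 1 to high 3 and at 304, 231 and 271 in low 1 to low 3, opposite in direction to SGPP2. ACSL3, which activates fatty acids, was at 9744 ± 1359 against 10732 ± 1319 (SD, n = 3 each). These neighbours were chosen after the gene lists, from map order alone.

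The rest of the pathway was followed through 84 further genes in 6 lists, of which 75 were measured. Limma called 0 of them at an adjusted p under 0.05, and 8 had an unadjusted p under 0.05 (3 higher, 5 lower in high prolific sows), which is 10.7% of them, beside 7.92% of all genes. The groups did not overlap in 14 (18.7%, beside 13.5% of all genes). The median log2 fold change over the 75 was -0.02.

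The list of other S1P genes, 11 measured, held 3 of the 8 genes with an unadjusted p under 0.05, all lower in high prolific sows. These are 27.3% of the list, beside 7.92% of all genes (4.09% lower in high prolific sows). The groups did not overlap in 4 of the 11 (36.4%, beside 13.5% of all genes), 3 with the low and 1 with the high prolific sows above. S1PR5, a receptor of natural killer cells and of some nervous and endothelial cells, was at 75.9, 82.9 and 104 in high 1 to high 3. In low 1 to low 3 it was at 132, 152 and 164. Each high prolific sow lay below each low prolific sow, and the means were 87.5 ± 14.4 and 149 ± 16.1 (SD, n = 3 each; log2 fold change -0.77 ± 0.20, SE; limma adjusted p = 0.619). ABCC1, an ABC transporter that can carry S1P among many substrates, was at 1213, 1214 and 1002 in the high and 1331, 1691 and 1605 in the low prolific sows, again without overlap. Its log2 fold change of -0.43 ± 0.14 (SE; limma adjusted p = 0.619) was -0.23 without low 2 and low 3.

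PLPP2, a phosphatase of lipid phosphates at the cell surface, was at 2786, 2300 and 2168 in high 1 to high 3 and at 2658, 3481 and 3264 in low 1 to low 3, with high 1 above low 1, and a log2 fold change of -0.37 with all sows and -0.15 without low 2 and low 3. PLPP1, of the same family, was lower without overlap (672, 615 and 597 against 709, 809 and 712), and PLPP3 was at 7646 ± 610 against 7108 ± 768 (SD, n = 3 each). APOM, the carrier of S1P in lipoproteins, was higher without overlap, at 371, 318 and 311 against 286, 274 and 250. PLPP1, PLPP3 and APOM were singled out after their values were seen. ALDH3A2, which handles the aldehyde that the lyase releases, had a log2 fold change of -0.14.

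Among genes that supply the sphingosine for S1P, 4 ceramidases, which free it from ceramide, were measured. An unadjusted p under 0.05 was found in 1 of the 4 (25%, beside 7.92% of all genes). The groups did not overlap in 1 (25%, beside 13.5% of all genes). Both times this was ACER2 of the Golgi. ACER2 was at 399, 424 and 375 in high 1 to high 3 and at 304, 216 and 322 in low 1 to low 3. Each high prolific sow was above each low prolific sow (log2 fold change 0.53 ± 0.19, SE; limma adjusted p = 0.619). The lysosomal ASAH1 was at 50852, 35589 and 35264 against 40773, 35144 and 46512, with a log2 fold change of -0.02. ACER3 and ACER1 had log2 fold changes of -0.12 and 0.11, and each changed sign in 2 of the alternative analyses; without low 2 and low 3 they were -0.19 and 0.24.

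Ceramide synthesis from serine, 14 measured, had 7 genes above and 7 below 0. An unadjusted p under 0.05 was found in 1 (7.14%, beside 7.92% of all genes). That was DEGS2, a desaturase that forms ceramide and phytoceramide, at 269, 178 and 215 in the high and 285, 311 and 303 in the low prolific sows (log2 fold change -0.46 ± 0.19, SE; limma adjusted p = 0.629). The ceramide synthases CERS4 and CERS6 had log2 fold changes of -0.41 and 0.38, with overlapping groups. CERS6 was at 0.19 without low 2 and at 0.04 without low 2 and low 3, and CERS4 was at -0.06 between the 2 sows of parity 5. Of 9 genes of sphingomyelin synthesis and breakdown none had an unadjusted p under 0.05. The sphingomyelinase SMPD3 (445 ± 37.6 against 344 ± 88.6) and the synthase SGMS2 (1468 ± 198 against 1123 ± 346; SD, n = 3 each) had the smallest p, with overlapping groups. Their log2 fold changes of 0.40 and 0.42 were 0.0056 and -0.06 without low 2 and low 3. SMPDL3B, a membrane protein related to sphingomyelinases, reached 1747 in low 1, while the remaining 5 sows had 426 to 605. Leaving low 1 out took its log2 fold change from -0.59 to 0.0079, and leaving low 2 and low 3 out took it to -1.78.

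Among 18 genes of ceramide transfer, phosphorylation and glycosphingolipids, 1 had an unadjusted p under 0.05 (5.56%, beside 7.92% of all genes). The groups did not overlap in 1 (5.56%, beside 13.5% of all genes). UGT8, which makes galactosylceramide, was that gene both times and had the smallest p. It was at 929, 989 and 989 in high 1 to high 3 and at 779, 586 and 729 in low 1 to low 3 (log2 fold change 0.48 ± 0.13, SE; limma adjusted p = 0.619), without overlap, and the log2 fold change was 0.31 without low 2 and low 3. B4GALT5, a lactosylceramide synthase, was at 1797 ± 313 against 2195 ± 151 (SD, n = 3 each). GLB1, the lysosomal beta-galactosidase, was at 8293 in high 1 but at 2451 and 2416 in high 2 and high 3, the sows of parity 8. In the low prolific sows it ran from 6062 to 7917. The log2 fold change was -0.92 with all sows and -1.51 when high 1 was left out.

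Of 19 genes that couple the receptors to the cell, 2 had an unadjusted p under 0.05 (10.5%, beside 7.92% of all genes). The groups did not overlap in 7 (36.8%, beside 13.5% of all genes), 3 with the high and 4 with the low prolific sows above. CD69 differed most. CD69 is a membrane protein of activated lymphocytes that binds S1PR1 and draws it from the cell surface. It was at 1252, 334 and 405 in high 1 to high 3 and at 221, 47.7 and 234 in low 1 to low 3, so each high prolific sow was above each low prolific sow. The log2 fold change was 2.02 ± 0.76 (SE; limma adjusted p = 0.623), and it was 1.28 without low 2 and 1.32 without low 2 and low 3. The sums of 10 leukocyte markers overlapped, at 4568 to 5876 in the high and 4391 to 5317 in the low prolific sows, and high 1, which had the most CD69, had 4702. Of these 10 markers 8 lay higher on average in high prolific sows. The T cell genes CD3E, CD2 and CD3D were 1.40-fold, 1.40-fold and 1.34-fold higher. CD2 (183, 354 and 192 against 149, 176 and 173) was the 1 marker of the 10 without overlap (10%, beside 13.5% of all genes). In high 1, CD3E (82.2) and CD3D (99.9) lay within the range of the low prolific sows (72.7 to 110 and 83.8 to 105). The part of these T cell genes in the CD69 difference was not tested. RAC1, a GTPase of barrier formation and cell movement, was at 9230, 8866 and 10594 against 11779, 15057 and 11588, without overlap (log2 fold change -0.42 ± 0.15, SE; limma adjusted p = 0.619). GNAQ, a G protein alpha subunit, was at 3449 ± 469 against 2759 ± 282 (SD, n = 3 each).

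**Figure D5:**
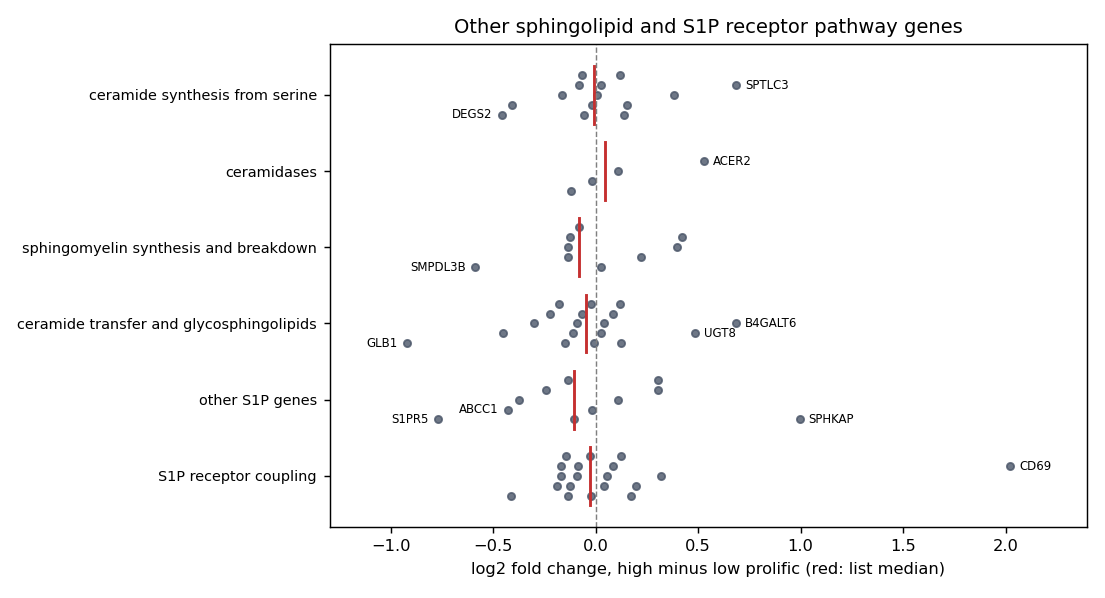
Log2 fold change on the log2(value + 1) scale, high minus low prolific, of 75 further sphingolipid and S1P receptor pathway genes in 6 lists (1 point per gene, red line the list's median). Most points lie near 0, with CD69 at 2.02 and S1PR5 at -0.77, and the list medians lie between -0.11 and 0.04.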

How the data were processed

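The table deposited by the authors gives each gene a normalized read count in each library, a signal scaled to near-equal column sums. Subread 1.6, featureCounts and edgeR are named in the submitters' processing notes, with no roles given; the build, annotation, strand setting and normalization are not given in the sources used here. A single step size per library made between 40.8% and 100% of its values under 20 whole to within 0.1, too few in most libraries to recover reads, so count models were not used. All 14262 genes were at 10 or more in at least 3 sows. Gene symbols from a table of Ensembl identifiers matched 11977.

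Groups were compared with limma 3.58.1 (R 4.3.3) on log2(value + 1), with variance trend and robust moderation, two-sided, with Benjamini-Hochberg adjustment over all genes at 0.05. Intervals are 95% from the same fit. This comparison was simulated in 5 runs (14262 genes, 200 changed). The share of changed genes recovered was 46.4% at 2-fold, 75.6% at 4-fold and 90.8% at 8-fold. These shares hold for the simulated noise and cannot be read as the share of real changes found here. In the sows limma called 0 of 14262 genes, and the smallest adjusted p was 0.493. Whether the shares carry over to sows that differ together over many genes, as low 2 and low 3 did, was not tested. The members and gene lists were chosen with earlier results of these data known. Named genes are the 9 members, the 3 genes of smallest p in each of 6 pathway lists and the 8 genes most like SGPP2. There were 18 alternative settings and 1 added after seeing the data, the 2 sows of parity 5.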

Additional observations from a re-analysis of the deposited data

How the results depend on the processing

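Under the 18 alternative settings 0 S1P genes and 0 further pathway genes were called by limma at an adjusted p under 0.05, with 1 to 4 and 2 to 12 at an unadjusted p under 0.05. All 9 and 75 were tested, except at a mean of at least 200 (7, without SPHK1 and S1PR3, and 66) and of at least 50 (71 pathway genes). Over all genes the count was 0 except when 1 sow was left out, where it ran from 0 to 4 (4 without low 1, 1 without low 2). The unadjusted count over all genes was 466 without high 2, 632 without low 2, 1872 without low 1, 631 without low 2 and low 3, and 615 with the replicate block, against 1129. The titles number the sows 1 to 3 in each group without saying that numbers pair them. Same-numbered sows deviated from their group means with correlations of -0.38, -0.16 and -0.36 across genes, and no sow correlated best with its own number. The replicate block left 0 genes called.

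SGPP2 was chosen for its group difference and its groups did not overlap, so leaving out 1 sow could not turn its sign. Its log2 fold change ran between 2.81 and 3.76 with 1 sow left out. Leaving out low 2 together with low 3 keeps low 1 alone in its group, without a replicate. It turned the log2 fold change in SGPP1 (-0.335), SPHK2 (-0.0226), S1PR3 (0.509) and SGMS2 (-0.0585). With 1 sow left out, SGPP1 ran from 0.134 to 0.659, SPHK2 from 0.00687 to 0.102, SGMS2 from 0.27 to 0.659, S1PR3 from -0.359 to 0.104, ACER3 from -0.309 to 0.0495, ACER1 from -0.0225 to 0.277 and SMPDL3B from -0.9 to 0.00788 (-1.78 without low 2 and low 3). Between the 2 sows of parity 5, ACER3 (0.0863), ACER1 (-0.0716), SMPDL3B (0.0322), GLB1 (0.0669), ST6GALNAC1 (-0.0989), STC2 (-0.396) and LAMA3 (-0.29) turned. The cause was not tested. Rescaling the columns moved the median log2 fold change of all genes by at most 0.0447 and turned none of the named genes. Depth is unknown, and 3 sows per group limit the precision.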

Other observations

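Some sphingolipid genes varied several-fold between sows without following the groups. They were picked after their values were seen. SPTLC3, a subunit of serine palmitoyltransferase that widens its substrate range, was at 387, 800 and 3118 in high 1 to high 3 and at 2580, 417 and 216 in low 1 to low 3. High 3 and low 1 were thus the high sows for SPTLC3. SPHKAP, an anchoring protein that binds sphingosine kinase, was at 190, 491 and 22.4 in the high and at 30.0, 70.4 and 125 in the low prolific sows, with high 2 the highest and high 3 the lowest. PSAP, prosaposin, the precursor of activators of lysosomal sphingolipid breakdown, was at 65918, 34264 and 30012 against 40314, 46880 and 91752. Its highest values were in high 1 and low 3, the 2 sows of parity 5.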
